A study of Mus musculus with 6 samples.

Results

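A set of 29 genes of the 10989 in the deposited table stood near the bottom of the scale in wild-type mouse embryonic stem cells and above it in lines labelled as knockouts of Ddx5. They were chosen by their values: at least 80 deposited units in all 4 knockout (KO) lines and at most 40 in both wild-type (WT) libraries. In all 32 genes met these values, and 3 of them, Rbm44, Boll and Rbm46, were set aside by name. Also set aside by name were other genes of the germ line and the trophoblast factor Ascl2. Because the KO and WT values chose the genes, the gap between KO and WT is given below as a description with no test. A deposited unit is the authors' normalized expression score, 1 value per gene and library, whose totals per library lay between 14612799 and 14722877 units. These totals come from the normalization, so sequencing depth is unknown. The 29 genes left after the removals by name ranged over neuronal and sensory, germ line, matrix, epithelial and metabolic functions. No tissue accounted for more than 6 of them.

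The KO group held 4 lines of MPI-II mouse embryonic stem cells, each grown from a single clone after a Cas9 nickase and paired guides had cut the second exon of Ddx5 and G418 had selected the transfected cells. The WT group held 2 replicates of MPI-II cells labelled wild type, and the labels do not say whether these came from separate cultures. Both groups were used at passages 13 to 18 on feeder cells, in serum with the inhibitors PD0325901 (of MEK) and CH99021 (of GSK3) and the cytokine LIF. RNA was extracted with TRIzol. KO lines 1 to 4 held 5854, 8450, 12793 and 5659 units of Ddx5 itself, against 36433 and 36436 units in WT replicates 1 and 2. Line 3 thus kept 35.1% of the WT mean and the other lines 15.5% to 23.2%, and transcript levels do not measure the protein. WT replicate 2 differed in shape from the other libraries, since 131 genes were at 0 there and 13 to 19 in each other library.

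Embryonic stem cells keep most genes of differentiated tissues silent. Polycomb complexes hold many developmental genes with CpG-rich promoters in that state. Many germ line genes are silenced by DNA methylation and by a variant Polycomb complex, PRC1.6, that is recruited to E-box and E2F sites. Ddx5, or p68, is an RNA helicase that takes part in transcription, the splicing of transcripts and the maturation of microRNAs. The series was titled for lineage-specific genes and Polycomb in cells that lack it.

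Promoter sequence was not used to choose the genes, so it is shown first. RefSeq promoters (build GRCm38.p6), from 250 bases before to 50 bases after a gene's start, were matched by symbol for 24 of the 29 genes, and Adam11, Bmp7, E130309D14Rik, Greb1l and Ppp1r3b had no entry. The promoters spanned the whole range of CpG content. The first 3 below show that range, with each CG in capitals: Casz1 (chr4:148804142-148804441, plus strand) is dense in CG, Ceacam20 (chr7:19965162-19965461, plus strand) has almost none, and 8030474K03Rik (chrX:101794406-101794705, plus strand) belongs to the gene with the highest KO mean. The last, Cntd1 (chr11:101278953-101279252, plus strand), holds the only CACGTG found, shown in capitals.
Casz1: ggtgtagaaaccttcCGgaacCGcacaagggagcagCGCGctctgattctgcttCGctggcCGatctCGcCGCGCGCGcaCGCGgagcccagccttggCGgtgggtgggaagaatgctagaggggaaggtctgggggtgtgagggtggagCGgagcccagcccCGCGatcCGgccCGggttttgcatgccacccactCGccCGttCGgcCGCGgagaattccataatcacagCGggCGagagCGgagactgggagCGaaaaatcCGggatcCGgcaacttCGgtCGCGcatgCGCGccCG
Ceacam20: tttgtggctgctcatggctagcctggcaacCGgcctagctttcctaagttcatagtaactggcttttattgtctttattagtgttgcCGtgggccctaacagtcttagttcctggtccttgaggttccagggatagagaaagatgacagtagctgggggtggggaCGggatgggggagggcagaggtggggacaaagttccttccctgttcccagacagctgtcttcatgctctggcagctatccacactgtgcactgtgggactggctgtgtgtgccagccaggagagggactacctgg
8030474K03Rik: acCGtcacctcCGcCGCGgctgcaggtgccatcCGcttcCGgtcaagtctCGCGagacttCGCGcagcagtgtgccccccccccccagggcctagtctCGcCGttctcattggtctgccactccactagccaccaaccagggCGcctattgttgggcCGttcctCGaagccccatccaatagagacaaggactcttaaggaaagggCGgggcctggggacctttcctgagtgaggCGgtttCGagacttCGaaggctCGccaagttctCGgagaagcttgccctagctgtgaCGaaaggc
Cntd1: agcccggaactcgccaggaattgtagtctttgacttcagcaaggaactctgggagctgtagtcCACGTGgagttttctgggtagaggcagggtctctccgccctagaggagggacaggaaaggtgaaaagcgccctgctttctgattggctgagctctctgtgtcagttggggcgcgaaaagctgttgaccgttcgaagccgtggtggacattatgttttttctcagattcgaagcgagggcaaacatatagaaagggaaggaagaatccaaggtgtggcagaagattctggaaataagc

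The CpG observed/expected ratio sets the number of CG pairs against that predicted from the C and G content, and a ratio of at least 0.6 was taken as CpG rich. The Casz1 promoter above reached 1.08, that of 8030474K03Rik 0.76, that of Cntd1 0.65, and that of Ceacam20 only 0.14. Of the 24 promoters, 11 (45.8%) were CpG rich, against 77.4% of the 8598 promoters matched to genes of the table. Among other genes within the same range of KO means 69.2% of 2483 promoters were CpG rich. Among the other genes with both WT values at most 40, the share was 43.3% of 67, close to that of the chosen genes. The median ratio was 0.58 in the 24 promoters and 0.79 in all 8598. Adamts14 (1.01), Per3 (1.02), Cdk5r2 (0.86) and Atp2b2 (0.85) stood with Casz1 at the high end. Plekha6 (0.18), Cnga3 (0.16) and Tex16 (0) stood at the low end, but their listed starts lie 81887, 3844 and 82513 bases from the GENCODE start. With only starts within 1000 bases of the GENCODE start, 11 of 20 promoters (55.0%) were CpG rich, against 79.1% of 7864.

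The letters CACGTG, an E-box that reads the same on both strands and is known as the site of MAX and MGA in PRC1.6, were in 1 of the 24 promoters (4.17%), against 10.9% of all 8598. The E2F core TCCCGC or its reverse complement GCGGGA was in 7 (29.2%): Micall2, Fads6, Hpdl, Per3, Kif26a, Cdk5r2 and Atp2b2. Of all 8598 promoters 38.2% held that core. Among the 67 promoters of other genes with both WT values at most 40, 5.97% held CACGTG and 29.9% the E2F core. Overlaps between motifs were not removed, and an absence says only that the letters are not within these 300 bases.

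**Figure D1:**
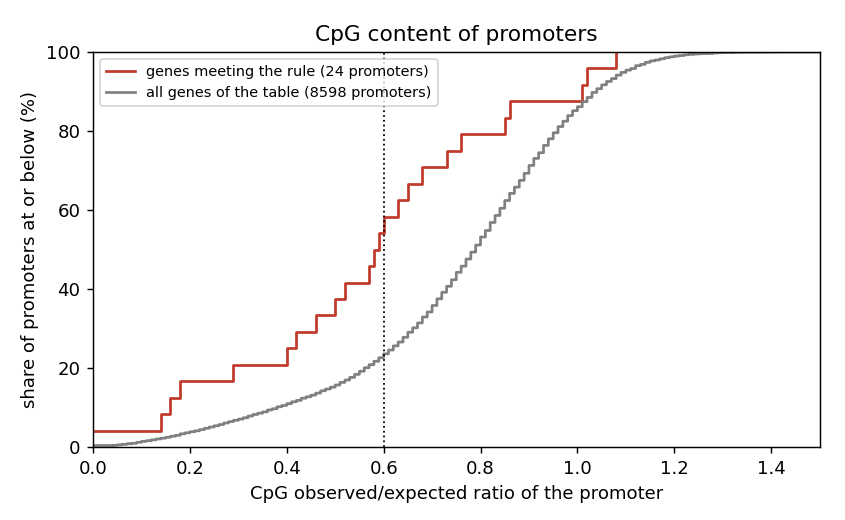
Share of promoters (y axis, %) at or below each CpG observed/expected ratio (x axis, no unit), for 24 of the 29 genes and for all 8598 promoters matched to genes of the table. The dotted line marks a ratio of 0.6, which 11 of the 24 and 77.4% of all promoters reached.

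Among the 29 genes, KO means lay between 89 and 342 units with a median of 131.5, and WT means between 8.5 and 34 units with a median of 23.5. The ratio of the KO mean to the WT mean had a median of 6.78 and ran from 2.78 in Raet1e to 32.79 in Gm5128. The genes remained low on the scale of the table: the median KO mean of all genes was 547.5 units, and 13.4% of genes had a KO mean below 131.5. Of all genes 24.1% had every KO line above both WT libraries, and 0.291% met the values of the rule. At an adjusted p below 0.05 in limma, which tests each gene across the 6 libraries, 9.75% of all genes were called higher in KO and 7.34% lower, 17.1% in all. That contrast chose the genes, so nothing is read from their own calls. All genes in the table reach 80 units in at least 2 libraries. A gene with both WT values at most 40 is therefore in the table only through its KO values, and the 29 are 23.0% of the 126 such genes.

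**Figure D2:**
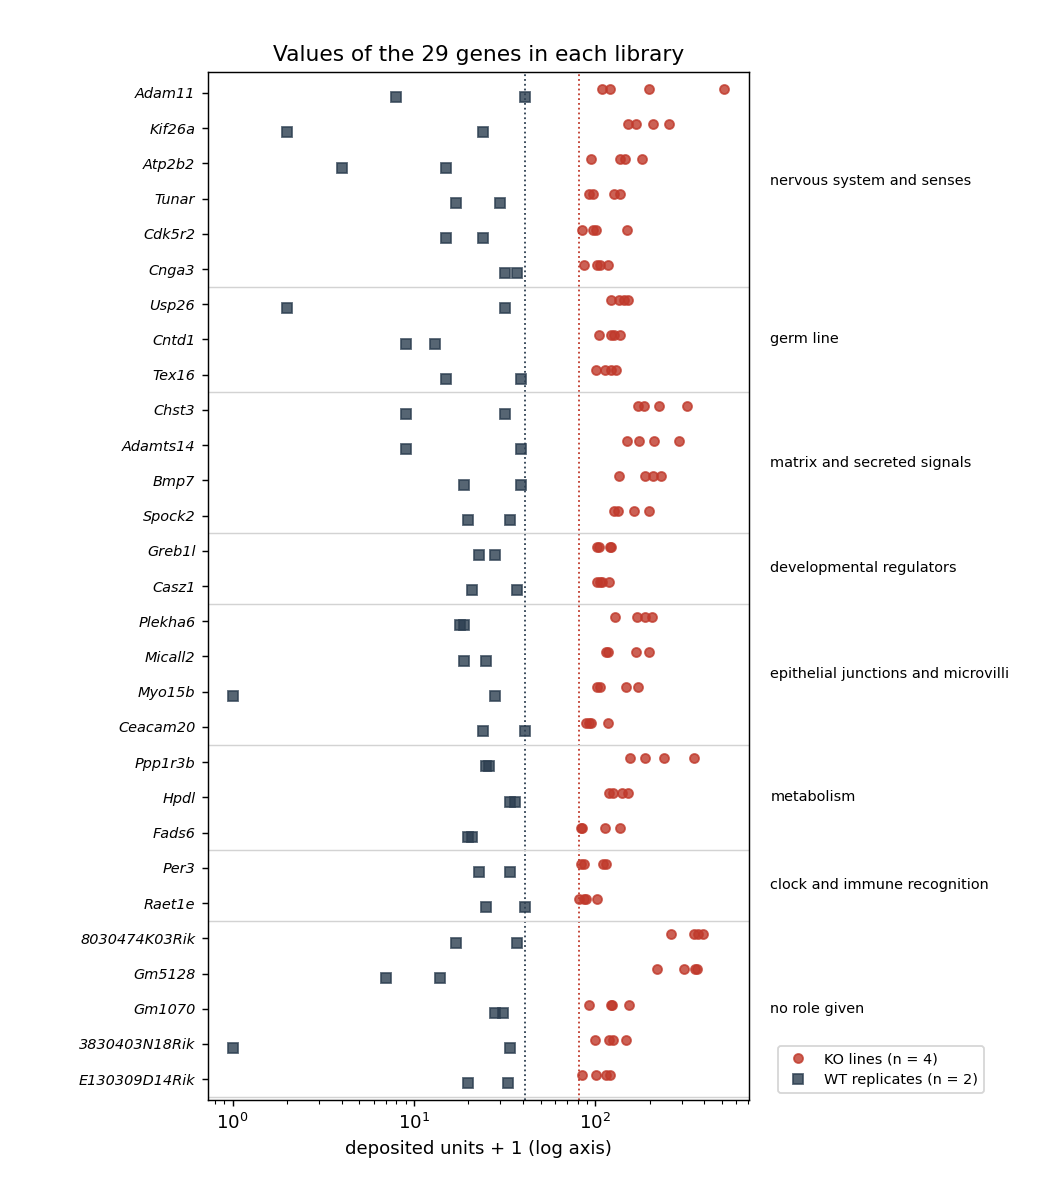
Deposited units plus 1 (log x axis) of the 29 genes (y axis, grouped by known role), with circles for the 4 KO lines and squares for the 2 WT replicates. The dotted lines mark 80 and 40 units, which chose the genes, so the gap between the groups is fixed by the choice, which also limits the spread within each group.

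Adam11, Ceacam20 and Raet1e were just inside, each at 40 units in WT replicate 1. Just outside were Car12, with 41 and 31 units in WT, Prmt8, with 41 and 17, and Fbxo48, with 24 and 42, all of them at 84 units or more in each KO line. Raet1e at 80, Fads6 at 82 and Per3 at 82 had the lowest values in a KO line among the genes inside, and Gm3558, Psd4 and Wdr78 reached only 78 in their lowest line.

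The genes known from the nervous system and the senses were the largest group by role among the 29, with 6 members. That rank depends on the removals by name, as Rbm44, Boll and Rbm46, which met the values, are germ line genes. Roles were assigned after the set was known. KO means of the 6 ran from 102.5 to 235.0 units. Adam11, a membrane protein of neurons that lacks protease activity, had 120, 108, 198 and 514 units in KO lines 1 to 4, against 40 and 7 units in WT replicates 1 and 2. Line 4 stood far above the other lines, and the coefficient of variation over the lines, 80.9%, was the highest of the 29 genes. Kif26a, a kinesin without motor ATPase activity that is known from enteric neurons, had 166, 208, 150 and 256 units in the KO lines, against 23 and 1 in WT. Atp2b2, the plasma membrane calcium pump PMCA2 of hair cells and Purkinje cells, had 145, 94, 136 and 180 units in the KO lines, against 3 and 14 in WT. Both genes were low in both WT replicates, and their lines differed by less than 2-fold. Cdk5r2, the neuronal CDK5 activator p39, had 148, 84, 96 and 100 units in the KO lines, against 23 and 14 in WT, and line 1 was the highest. Tunar, a transcript of embryonic stem cells and brain, averaged 112.5 ± 21.8 units in KO (SD, n = 4) and stood at 16 and 29 units in WT. Cnga3, a subunit of the cone photoreceptor channel, averaged 102.5 ± 12.5 units in KO (SD, n = 4) and stood at 31 and 36 in WT.

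Genes of the germ line made up 3 of the 29 after the named removals. Cntd1, a cyclin-like protein needed for meiotic crossovers, had 126, 136, 121 and 104 units in KO lines 1 to 4, against 12 and 8 units in WT. Its 4 lines lay close together, and its ratio of means, 12.18, was the highest of the 3. Of the 4421 exonic bases of Cntd1 (chr11:101279012-101296317, plus strand), 3104 (70.2%) are also exonic in Becn1 on the opposite strand. Becn1, a regulator of autophagy, stood at 844 to 918 units in KO and at 1032 and 1047 in WT (log2 difference -0.24 ± 0.091, SE, limma adjusted p = 0.11). Whether counting used strand is not given in the sources used here, so the reads of the pair cannot be told apart. Usp26, an X-linked deubiquitinase of the testis, had 143, 134, 150 and 122 units in the KO lines, against 31 and 1 in WT. Tex16, an X-linked gene named for its testis expression, averaged 116.0 ± 13.0 units in KO (SD, n = 4) and stood at 14 and 38 units in WT. For Usp26 WT replicate 1 was the higher of the pair, and for Tex16 WT replicate 2.

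Genes of the extracellular matrix and of secreted signals numbered 4, and 3 of them lie on chromosome 10. Chst3, which adds sulfate to carbon 6 of chondroitin, had 322, 224, 184 and 172 units in KO lines 1 to 4, against 31 and 8 in WT. Adamts14, a protease that removes the amino propeptide of procollagen, had 288, 174, 210 and 148 units in the KO lines, against 38 and 8 in WT. Both were highest in line 1 and lowest in line 4. Spock2, the proteoglycan testican-2, had 162, 132, 126 and 196 units in the KO lines, against 19 and 33 in WT, and was highest in line 4. Bmp7, a BMP ligand of kidney, eye and skeletal development, had 188, 208, 134 and 229 units in the KO lines, against 38 and 18 in WT.

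The start of Spock2 (chr10:60106219-60135198, plus strand) lies 113.0 kb from that of Chst3 (chr10:60181532-60219260, minus strand), with no other gene of the table starting between them. Adamts14 (chr10:61197112-61273438, minus strand) lies 1054.2 kb from Chst3 with 4 table genes between them. Psap, a lysosomal protein whose start lies 58.4 kb upstream of Chst3, differed by 0.39 ± 0.142 (log2, SE, limma adjusted p = 0.096). Ddit4, a stress-induced inhibitor of mTORC1 whose start is 267.4 kb downstream, had 2690, 3190, 3046 and 4456 units in the KO lines, against 745 and 1008 in WT. Ddit4 differed by 1.90 ± 0.215 (log2, SE), limma adjusted p = 0.00495, and all 4 KO lines stood above both WT replicates. Of the other genes drawn, Sgpl1 was called higher, and Sar1a and Dnajb12 lower.

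**Figure D3:**
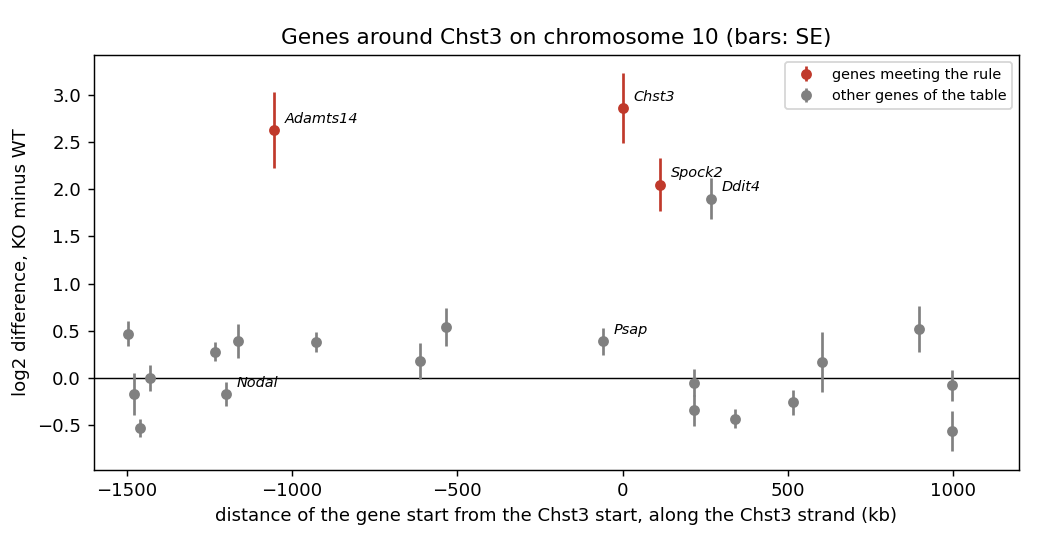
Log2 difference of KO minus WT (y axis, bars show the SE, 6 libraries) of the genes of the table, by distance from the Chst3 start (x axis, kb, along the Chst3 strand). The genes chosen by the rule, Chst3, Spock2 and Adamts14, are drawn only for position, and Ddit4 is the only other gene near their height, with Psap between them at 0.39.

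Known regulators of development numbered 2. Casz1, a zinc finger transcription factor of heart and retina, had 102, 106, 108 and 118 units in the KO lines, against 36 and 20 units in WT, and its coefficient of variation of 6.3% was the lowest of all 29 genes. Greb1l, on chromosome 18 and known from kidney and inner ear development, had 104, 120, 102 and 121 units in the KO lines, against 27 and 22 in WT.

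Genes of epithelial junctions and microvilli numbered 4. Plekha6, a PH domain protein of cell junctions, had 127, 170, 205 and 187 units in KO lines 1 to 4, against 17 and 18 in WT. Its WT replicates were nearly equal. Micall2, an effector of Rab13 at tight junctions, had 116, 198, 168 and 114 units in the KO lines, against 24 and 18 in WT. Myo15b, an unconventional myosin, had 102, 146, 106 and 172 units in the KO lines, against 27 and 0 in WT. Ceacam20, an adhesion protein of intestinal microvilli, averaged 97.5 ± 12.6 units in KO (SD, n = 4) and stood at 40 and 23 in WT. Only line 1, at 116 units, was above 100 for Ceacam20.

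Metabolic genes numbered 3. Ppp1r3b, a subunit that targets protein phosphatase 1 to glycogen, had 154, 238, 187 and 352 units in KO lines 1 to 4, against 25 and 24 in WT, and line 4 was the highest by a wide margin. It is the only one of the 29 genes on chromosome 8, which as a whole stood lower in KO line 1 and in WT replicate 1 than in other libraries (median log2 offset -0.46 and -0.49, against 0.13 to 0.21 in KO lines 2 to 4 and -0.03 in WT replicate 2). The part of that offset in the low value of line 1 was not tested. Hpdl, a mitochondrial protein known in human for the coenzyme Q pathway, had 150, 118, 124 and 140 units in the KO lines, against 35 and 33 in WT. Fads6, of the fatty acid desaturase family, averaged 103.8 ± 25.7 units in KO (SD, n = 4) and stood at 19 and 20 in WT.

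Per3, a period protein of the circadian clock, had 114, 82, 86 and 109 units in the KO lines, against 33 and 22 in WT. Raet1e, a ligand of the NKG2D receptor on natural killer cells, had 80, 102, 86 and 88 units in the KO lines, against 40 and 24 in WT. Both reached the rule narrowly. Raet1e shares 16.8% of its exonic bases with Raet1d and 6.2% with H60b on the same strand, and these belong to a family of near-identical copies, so its values are uncertain.

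The remaining 5 genes have no role given here. The gene 8030474K03Rik, on the X chromosome, had 348, 390, 368 and 262 units in KO lines 1 to 4, against 36 and 16 in WT, and held the highest KO mean of the 29, 342.0 ± 56.0 units (SD, n = 4). Gm5128, also X-linked, had 308, 365, 354 and 219 units in the KO lines, against 6 and 13 in WT, the largest ratio of means. The third X-linked gene of the 5, 3830403N18Rik, for which RefSeq lists the synonym Xlrl, had 118, 124, 146 and 99 units in the KO lines, against 33 and 0 in WT. All 3 were lowest in line 4. Gm1070 on chromosome 6, a lincRNA in GENCODE, averaged 122.2 ± 24.5 units in KO (SD, n = 4) and stood at 27 and 30 in WT. E130309D14Rik on chromosome 11, named Ccdc92b in GENCODE, averaged 104.5 ± 16.0 units in KO (SD, n = 4) and stood at 32 and 19 in WT.

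The median coefficient of variation over the KO lines was 19.4% in the 29 genes, a spread that the floor of 80 units in every line limits. It was 14.3% in the 3234 other genes in the same range of KO means. The KO lines are separate clones. Line 4 was the highest line for 11 genes (37.9%) and the lowest for 12 (41.4%). The shares were near those of the 3234 other genes, where line 4 was highest for 33.7% and lowest for 32.0%. Adam11 and Ppp1r3b differed at least 2-fold between the lowest and the highest line, by 4.76-fold and 2.29-fold. At the other end were Casz1 at 6.3% and Usp26 at 8.8%. Line 4 stood higher over chromosome 6 as a whole (median log2 offset 0.47), where its values were the highest of the 4 lines for both Atp2b2 and Gm1070. The part of that offset in both values was not tested. WT replicate 1 was above WT replicate 2 for 20 genes and below it for 9, and the share over all genes is not given here. The size of the gap rests on 1 WT library for several genes. With WT replicate 1 left out and with WT replicate 2 left out, the log2 difference of KO minus WT was 3.71 and 2.45 for Kif26a, 3.26 and 1.92 for Adam11, and 3.24 and 2.02 for Adamts14. In the same order it was 3.29 and 1.78 for Myo15b, 3.27 and 1.73 for Usp26, and 3.20 and 1.51 for 3830403N18Rik.

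**Figure D4:**
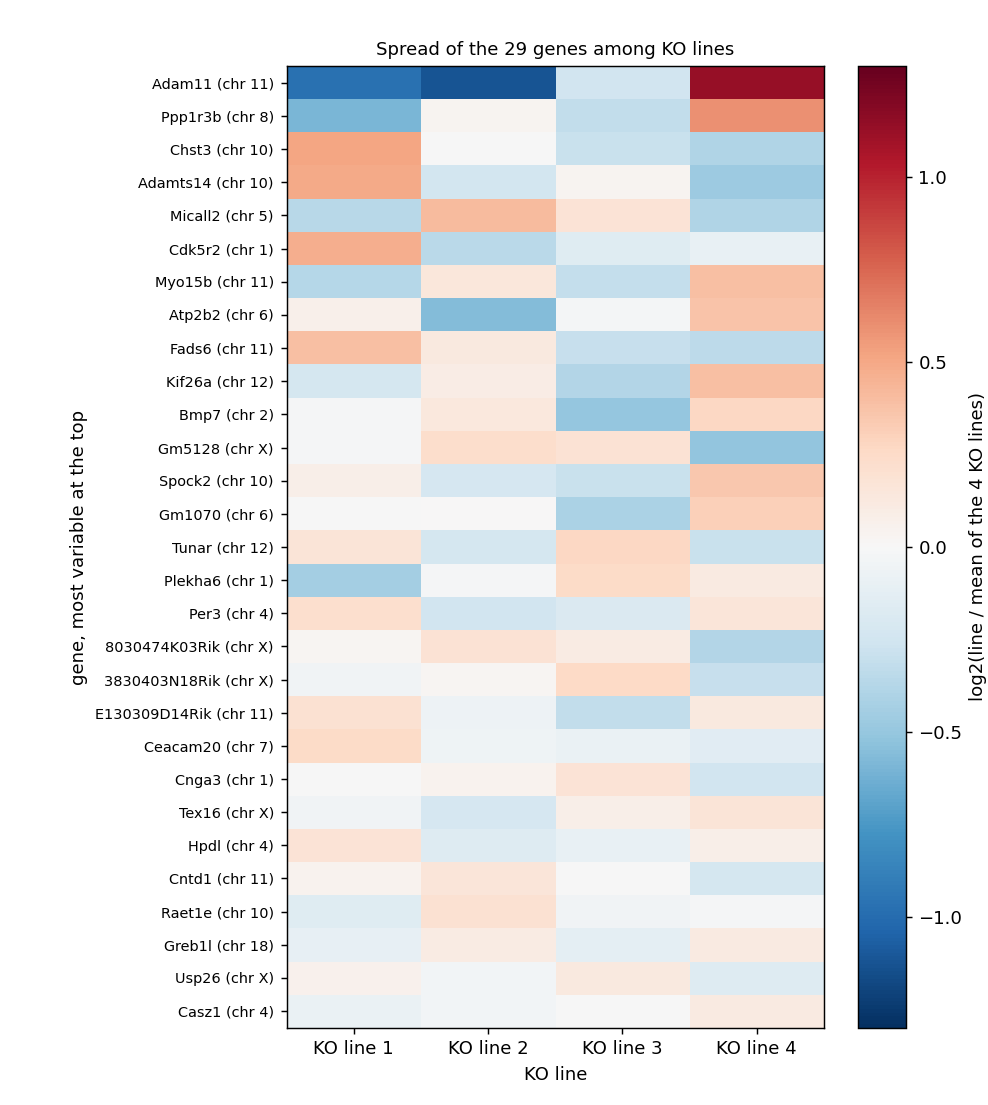
Log2 ratio of each KO line (x axis) to the mean of the 4 KO lines (colour, log2) for the 29 genes (y axis, the most variable at the top). Adam11 at the top spans the widest range with line 4 high, and Casz1 at the bottom is nearly uniform.

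On the X chromosome lay 5 of the 29 genes (17.2%), although X holds 3.79% of the genes of the table: 8030474K03Rik, Gm5128, Usp26, 3830403N18Rik and Tex16. Over all X-linked genes the median log2 difference of KO minus WT was 0.03, and that of all genes 0.04. Of 415 X-linked genes 32 (7.71%) were called higher and 48 (11.6%) lower, against 9.75% and 7.34% of all genes. In line 4 Tex16 had its highest value among the lines and the other 4 their lowest. Chromosome 11 also held 5 of the 29 genes (17.2%, against 7.88% of the table), namely Adam11, Myo15b, Cntd1, E130309D14Rik and Fads6. Chromosome 10 held 4 (13.8%, against 4.87%). No gene of the set was on chromosomes 3, 9, 13 to 17 or 19. Under other settings of the rule, the X share ran between 8.0% and 30.0%.

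**Figure D5:**
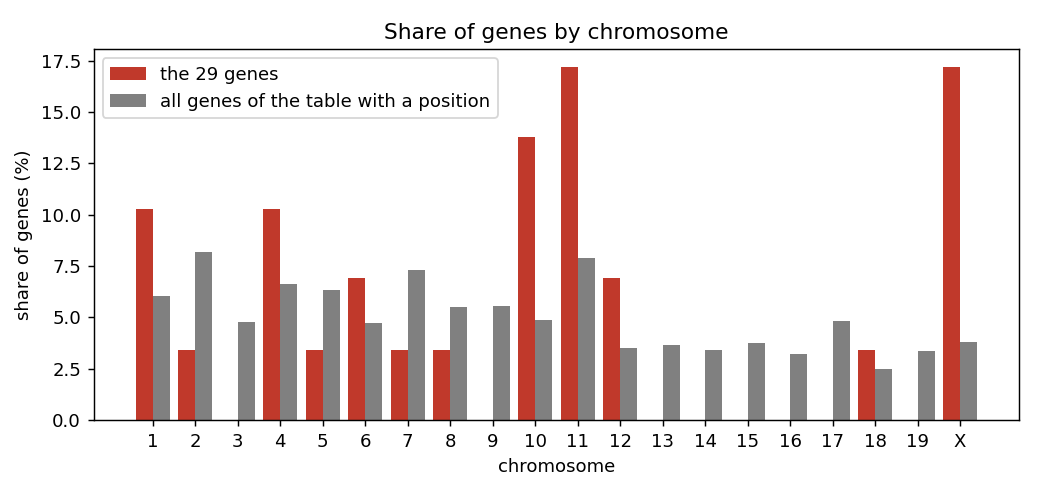
Share of genes (y axis, %) on each mouse chromosome (x axis), for the 29 genes and for all genes of the table with a position. Chromosomes X and 11 each hold 17.2% of the 29 genes, against 3.79% and 7.88% of the table.

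The neighbours of the chosen genes were not used to choose them and were tested. Every gene of the table reaches 80 units in at least 2 libraries. A neighbour below 80 units in both WT replicates is therefore present only through its KO values. Among the neighbours called higher this holds for Gm4779 and Nlrp9b, whose calls the filter favours. Within 100 kb of a start of 16 of the genes lay 38 other genes of the table, of which 8 were called higher and 1 lower (23.7%, against 17.1% of all genes). The median log2 difference was 0.40 for these 38, but 0.11 for the 21 genes within 50 kb and 0.11 for the 117 within 250 kb, and that of all genes was 0.04. Of the genes within 50 kb 23.8% were called, and of those within 250 kb 21.4%. Gm4779, a gene on the opposite strand that starts 0.2 kb upstream of 8030474K03Rik, had 126, 134, 104 and 37 units in KO lines 1 to 4, against 12 and 0 in WT. It differed by 2.43 ± 0.536 (log2, SE), limma adjusted p = 0.0263, and line 4, lowest for 8030474K03Rik too, was lowest for Gm4779. Coa3, an assembly factor of cytochrome oxidase that starts 0.1 kb from Cntd1 on the opposite strand, differed by -0.15 ± 0.203 (log2, SE), limma adjusted p = 0.637. Gm1564 near Adam11 (1.18), Nlrp9b near Ceacam20 (1.25), 2310067B10Rik and Caskin2 near Myo15b (1.25 and 0.85), Psmg3 and Ints1 near Micall2 (0.82 and 0.35) and Mutyh near Hpdl (0.54) were the other genes called higher, by log2 difference. The gap-junction gene Gjc1 near Adam11 fell by 0.68 on the log2 scale. These neighbour names were taken after their values were seen. The count of 9 called neighbours depended on single libraries: it was 2 when KO line 2 or WT replicate 2 was left out, 3 when KO line 3 was, and 17 when WT replicate 1 was.

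Other genes of the same tissues were set beside the 29. A gene below 80 units in both WT replicates is in the table only through its KO values. A silent gene that stayed silent in KO thus has no row, and the filter favours calls of higher. This holds for Lrfn5, Shank3, Cacna1h, Neurod1 and Actn2, among others, and limits all counts of higher and lower genes below. The lists were chosen with earlier results of these data known, and they held 330 measured genes outside the 29, of which 46 were called higher and 26 lower (21.8%, against 17.1% of all genes). The fibroblast list gave 15 of the 26. Without the fibroblast, stem cell and chromatin lists and the genes that met the values of the rule, 42 of 264 were higher and 7 lower (18.6%). The 72 calls became 32 when either KO line 2 or KO line 3 was left out. The genes of germ cells and meiosis, with 33 measured, had 19 higher and 0 lower in limma (25 higher and 0 lower at an unadjusted p under 0.05), with a median log2 difference of 1.02. Without 6 genes that were set aside by name, 13 of 27 were higher and 0 lower. Of all genes 9.75% were called higher and 7.34% lower. The 19 calls became 8 without KO line 2 and 7 when KO line 3 was left out. The spermatogenesis families were matched by symbol prefix, so not all of them are genes of the testis. They had 34 measured genes besides Adam11 and Tex16, of which 2 were higher and 2 lower.

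In none of the neuronal lists was the share called higher above the 9.75% of all genes, although the filter described above favours such calls. The synapse and neuronal adhesion list had 3 higher and 1 lower of 31 (median log2 0.34), and 12 higher and 6 lower at an unadjusted p under 0.05. Its calls rested on single libraries, with 13 when WT replicate 1 was left out, 1 when WT replicate 2 was, and 0 in limma when KO line 2 or KO line 3 was (9 higher and 4 lower, and 9 higher and 3 lower, at an unadjusted p under 0.05). Lrfn5, a synaptic adhesion protein, had 150, 110, 162 and 44 units in KO lines 1 to 4 and 0 in both WT replicates (limma adjusted p = 0.0128). Shank3, a scaffold of the synapse, and Nptxr, the neuronal pentraxin receptor, differed by 1.21 and 1.41 (log2). Voltage-gated and potassium channels had 3 higher and 1 lower of 41 (median log2 0.28), with the calcium channel Cacna1h at 2.29, and between 0 calls (without KO line 2, 5 higher and 3 lower at an unadjusted p under 0.05) and 10 calls (without WT replicate 1). Neurotransmitter receptors had 1 higher of 15 and 0 lower in limma (4 higher and 1 lower at an unadjusted p under 0.05). The higher one was the NMDA receptor subunit Grin1, with 488, 904, 449 and 444 units in the KO lines, against 100 and 121 in WT. Neuronal cytoskeleton genes had 1 higher and 2 lower of 20, and the lower ones were Stmn2 and Dpysl3.

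The counts of the lists that follow are to be read beside all genes, of which 9.75% were called higher and 7.34% lower. Developmental transcription factors had 6 higher of 33 and 0 lower in limma (10 higher and 4 lower at an unadjusted p under 0.05). The 6 include Ascl2, which was set aside by name and is also among the 4 higher of the trophoblast list. The 6 calls became 1 when KO line 2 or KO line 3 was left out, 2 and 3 when KO line 1 or KO line 4 was, and 11 when WT replicate 1 was. Neurod1, a neuronal and pancreatic factor, averaged 86.8 ± 19.7 units in KO (SD, n = 4) and stood at 20 and 22 units in WT. Epithelial genes of gut, liver and kidney had 4 higher of 11 and 0 lower in limma (5 higher and 0 lower at an unadjusted p under 0.05), among them the aminopeptidase Anpep (log2 difference 1.57), and the 4 calls became 1 when KO line 2 or KO line 3 was left out. Muscle genes had 2 higher of 11 and 0 lower (4 higher and 1 lower at an unadjusted p under 0.05), with the Z-disc protein Actn2 at 2.05. With KO line 2 or KO line 3 left out, 0 muscle genes were called in limma (4 higher and 1 lower, and 4 higher and 0 lower, at an unadjusted p under 0.05). The blood and immune list had 1 higher of 8, Cd37, and the trophoblast list 4 higher and 1 lower of 13. The two-cell stage list had 0 of 8 called and the neural stem and glia list 0 of 12 in limma (2 higher and 5 lower, and 2 higher and 0 lower, at an unadjusted p under 0.05). The PRC1.6 and DNA methylation list had 1 lower of 25, Dnmt3l, and the PRC2 list 1 lower of 10, Eed.

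The cell types of the cultures were set beside these lists. Of the 12 embryonic stem cell markers, all measured, Nanog was called higher and Klf4 and Lin28a lower, and their summed level was 127356 to 137431 units in KO, against 105370 to 174807 in WT. Of 20 fibroblast markers, which the feeder cells would carry, 17 were measured and 15 were called lower. Their sums were 42200 to 45280 units in KO, against 56346 to 82247 in WT. The median log2 difference of the 17 was -2.63, a larger fall than the sums show. Fewer such cells and less RNA per cell cannot be told apart in bulk samples. Of 9 neuron markers 3 were measured, and Dcx, Rbfox3, Snap25, Syt1, Elavl3 and Elavl4 had no row. Of the measured neuron markers 0 were called higher and 1, Stmn2, lower. Their sums were 4950 to 6105 units in KO, against 5815 to 9657 in WT. Of 7 germ cell markers 5 were measured, with sums of 2718 to 3384 units in KO, against 1699 to 1715 in WT. Mael, Ddx4 and Dazl were called higher and 0 lower. The part of these cells in the values of the 29 genes was not tested.

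Relatives of the 29 genes, chosen after the set was known, were set beside it. They were taken by family, symbol, pathway or partner protein, so not all of them are homologs of a chosen gene. Of 57 measured relatives 3 were called higher (5.26%, against 9.75% of all genes) and 7 lower (12.3%, against 7.34%). The 3 were Plekha2, Adamts9 and Tex11, the last matched to Tex16 by symbol. Bmp4, another BMP ligand, fell by 2.93 on the log2 scale (limma adjusted p = 0.0148), with 21, 24, 43 and 104 units in the KO lines, against 310 and 537 in WT. Kif26b, the paralog of Kif26a, fell by 1.75 on the log2 scale, Fads3 by 2.95, Mical2 by 2.84, Adamts5 by 1.95 and Adamts8 by 1.54. Of the 17 fibroblast markers measured 15 were called lower too, and the part of feeder cells in the falls of the relatives was not tested. Nr1d2, a repressor of the circadian clock, fell by 1.18 on the log2 scale, while the other 11 clock relatives of Per3 were not called.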

How the data were processed

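RNA sequencing of 4 KO lines and 2 WT replicates was deposited as 1 table. Per the submitters' processing notes, Bowtie2 2.2.0, RSEM 1.2.17 and build mm10 were used. The sources used here give neither their roles nor the annotation or normalization. Deposited values, which the authors named CPM, are whole numbers whose totals exceed those of CPM, so they were treated as a normalized score with no known depth, and no counting interval is given. The test had been planned for such a score. Members and lists were chosen with earlier results of these data known. Prefix lists were narrowed to prefixes followed by a number, and roles and relatives were assigned after the values were seen.

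Values were divided by 14.7, a pseudocount of 1 was added and log2 taken, which understates changes of low genes. A filter asking for 1 scaled unit or more in 2 libraries took out no gene. The groups were compared with limma 3.58.1 (R 4.3.3, lmFit and eBayes with a trend, two-sided, 4 residual degrees of freedom), with Benjamini-Hochberg adjustment over all 10989 genes and calls at an adjusted p below 0.05. The fit was tested on simulated data. The p-values measure only the spread between these samples, which may be technical in WT. All 29 genes are named, with values per library for those with the highest KO means, the extremes of spread and the edges of the rule, and for further genes where they show how a group varied. From each list, up to 3 called genes with the largest difference were eligible to be named. Positions come from GENCODE M21 (mm10, 10941 genes matched) and promoters from RefSeq (GRCm38.p6). The alternatives covered the rule, pseudocount, filter, scaling (unweighted trimmed means or quantiles), trend, windows, single libraries and a replicate block. A promoter set limited to starts near the GENCODE start was added after seeing the data.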

Additional observations from a re-analysis of the deposited data

Results flagged for a closer look

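The 4 KO lines of the genes named above, in the observations that follow, or listed at the edges of the rule were checked for a line far from the other 3, by the gap to the nearest line over the whole range. Of 120 genes checked 7 passed the critical value of 0.829, none of them among the 29. Chance flags about 1 in 20 groups that were not chosen by their values, but the rule had screened out a low KO line for the 29 and others were listed for having one, so that rate does not apply here. Line 2 stood apart for Grin1 (904 units, against 444 to 488 in the other KO lines, gap 0.904). Line 4 stood apart for Plekha2 (2466 units, gap 0.953), Pik3cd (311 units, gap 0.916) and Plcd4 (36 units, gap 0.87). Line 3 stood apart for Caskin2 (776 units, gap 0.833), Nptxr (160 units, gap 0.833) and Taf9b (56 units, gap 0.833).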

How the results depend on the processing

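All 382 values of the 29 genes under the alternatives kept a positive log2 difference of KO minus WT (0.63 to 4.88), a sign that the choice of the genes fixes. The number of genes meeting the rule was 5 with a WT limit of 20, 75 with 60, 10 with a KO limit of 120, 54 with 60, and 26 (all of them among the 29) with trimmed-mean scaling. After quantile normalization it was 7: 3830403N18Rik, Adamts14, Chst3, Cntd1, Kif26a, Myo15b and Usp26. That scaling lifted low values of WT replicate 2, where the median of the 29 became 48.5 units and 21 of them passed 40, against 3 in WT replicate 1. With single libraries left out 33 to 197 genes met the rule and all 29 were among them, by construction. The 1878 called genes became 472 to 3304 without single libraries. The labels do not say whether replicate numbers pair the samples. The correlation of deviations was 0.145 and 0.097 for the 2 shared numbers, which cannot decide it, as no unmatched pair was compared. Chromosome 8 was low in both KO line 1 and WT replicate 1 (median log2 offset -0.46 and -0.49). With the replicate block the fit called 20 genes, 6 genes of the lists and 0 neighbours in limma (13 higher and 2 lower at an unadjusted p under 0.05). KO lines 3 and 4 have no WT replicate of the same number, so they add nothing to the contrast in that fit. It also leaves fewer residual degrees of freedom than the 4 of the main fit. Called neighbours were 5 of 21 within 50 kb, 25 of 117 within 250 kb and 2 to 17 without single libraries. Called genes of the lists were 32 to 105 without single libraries. With a CpG ratio of 0.75, 6 of 24 promoters (25.0%) were CpG rich, against 57.6% of all 8598. The share was 47.4% for other genes in the same range of KO means. For other genes with both WT values at most 40 it was 29.9%. Of 238 counts of single lists, 170 stayed within 1.5 times. Apart from quantile normalization, the cause of these moves was not tested. Depth is unknown, and the lowest values carry the largest relative error.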

Other observations

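Further genes met the values of the rule when 1 library was left out, and their number differed by library. Without KO line 4 there were 21, with a median of 52 units in that line, and without KO lines 1, 2 and 3 there were 7, 4 and 4. With KO line 4 left out, the highest means of the other lines were those of Gm17210, Lrfn5, Plcd4, Megf11 and Snx20. Gm17210 had 212, 234, 150 and 36 units in KO lines 1 to 4, against 28 and 0 in WT. Snx20 had 86, 130, 149 and 20 units in the KO lines, against 14 and 16 in WT. Genes that line 1 kept out include the liver transporter Slco1b2, with 62, 120, 145 and 117 units in the KO lines, against 31 and 0 in WT, the copper pump Atp7b and the Z-disc protein Actn2.

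The WT replicates kept out many more. Without WT replicate 1 there were 168 further genes, whose values in that replicate ran from 41 to 828 units, and without WT replicate 2 there were 32. Tom1 had 514, 878, 834 and 934 units in the KO lines, against 828 and 0 in WT replicates 1 and 2. Lefty1, an inhibitor of Nodal, had 884, 985, 936 and 1274 units in the KO lines, against 39 and 644 in WT. Pik3cd, a kinase subunit of immune cells, had 192, 202, 200 and 311 units in the KO lines, against 40 and 111 in WT. The choice of these genes fixes that their WT replicates lie on opposite sides of 40 units.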
